A study of Mus musculus with 6 samples.

Results

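The transcription factors that give cortical projection neurons their identity were examined across the embryos and between genotypes. 8 genes were taken by name, Tbr1, Bcl11b, Fezf2, Sox5, Neurod2, Neurod6, Emx1 and Lhx2. The probe annotation of the array names 10 probes for 7 of them, out of 16593 named genes and 25697 probes in all. Sox5 has 4 probes, each other gene has 1, and no probe bore the name Emx1, so that gene was not analysed here. The 6 embryos were male, of strain C57BL/6J and at embryonic day 15, and their frontal cortex was taken. 3 were transgenic for the bacterial artificial chromosome RP24-333C15, which spans Cyfip1 and had been injected into C57BL/6J pronuclei. The other 3, labelled WT, are given as control littermates. RNA of each embryo was read on an Illumina MouseRef-8 bead array. With 6 arrays, precision is limited by their number. The labels do not give the copy number of the transgene or how many founders the animals come from. No probe bore the name Cyfip1, so the genotype labels were not checked against the transgene.

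Projection neurons are the glutamatergic neurons of the cortex that send long axons, and they arise from progenitors of the dorsal telencephalon, the pallium. Emx1 and Lhx2 are homeobox genes that act in pallial progenitors, and Lhx2 is also expressed elsewhere in the forebrain. Newborn neurons then switch on the basic helix-loop-helix genes Neurod2 and Neurod6. Within the deep layers, the T-box gene Tbr1 specifies neurons that project to the thalamus, while the zinc finger gene Fezf2 and its downstream partner Bcl11b, also called Ctip2, specify neurons that project to the brainstem and spinal cord. Sox5, of the SoxD family, controls the timing with which deep-layer neuron types appear. Bcl11b is also a gene of striatal neurons.

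Values are the authors' log2 intensities, which are quantile-normalized, so that every array has the same median of 7.18. Levels of different probes are on no common scale and are not compared with each other. According to the labels the 6 arrays were on 1 slide. Median scanner intensity before normalization ranged from 130.3 to 178.5 between arrays. The mean correlation of transgenic sample 1 with the other arrays, across probes, was 0.962, and the other samples had 0.975 to 0.983. The animal numbers in the labels fall under 100 in 1 embryo of each genotype (transgenic sample 1, wild-type sample 3) and over 200 in the remaining 4, and their meaning is not given. In bulk tissue, fewer cells of a type and less RNA per cell cannot be told apart.

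Not every sample was bright for Tbr1 and Fezf2, which mark deep-layer neurons of the labelled tissue. In wild-type sample 2, Tbr1 stood at the 46.3 percentile of all probes of its array and Fezf2 at the 12.3 percentile, levels at which dim probes lie. In the other 5 samples Tbr1 stood between the 77.9 and the 93.3 percentile and Fezf2 between the 74.1 and the 93.5. The remaining members were not all dim in wild-type sample 2. Neurod6 stood there at the 33.3 percentile, Neurod2 at 61.7, Lhx2 at 81.6, the brightest Sox5 probe at 82.3 and Bcl11b at 96.2. The homeobox genes Dlx1 and Nkx2-1, which mark the ventral telencephalon and not the projection neurons of the cortex, were dim in the same sample. Dlx1 stood at 6.79 there against 11.56 to 12.96 in the other samples, and Nkx2-1 at 6.81 against 8.43 to 11.42. Their level in those other samples is thus no sign of cortex, and the part of ventral tissue in them was not tested. En2, a homeobox gene of midbrain and hindbrain, stood at 12.23 in wild-type sample 2 and 10.98 in transgenic sample 3, and at 7.01 to 9.0 in the other samples. Bright muscle genes marked 2 other samples. Myl1, which encodes a light chain of muscle myosin, reached 12.90 in the first transgenic and 11.08 in the third wild-type embryo but 7.15 to 7.19 elsewhere. Results are therefore given with and without the second wild-type embryo, and, where stated, without the first transgenic one as well.

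Tbr1 (probe ILMN_2920503) stood at 11.16, 10.66 and 9.09 in transgenic samples 1, 2 and 3, and at 10.01, 7.09 and 10.55 in the wild-type samples 1, 2 and 3. The values spanned 4.07 on the log2 scale, and wild-type sample 2 lay alone at the bottom, below the array median and with a deviation of -2.67 from the mean of the 6 arrays on the log2 scale. Transgenic sample 3 was the next lowest. The other 4 embryos lay within a narrow band from 10.01 to 11.16, which holds embryos of both genotypes.

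Fezf2 (ILMN_2932692) stood at 10.32, 11.19 and 8.69 in the transgenic samples and at 9.63, 6.72 and 10.10 in the wild-type samples. The values spanned 4.46 on the log2 scale. The low end of this span, as of that of Tbr1, was not shown to lie above background, so that no fold is given. Of the 12848 probes tested, 30 had a larger span than Fezf2 and 41 a larger span than Tbr1. Fezf2 kept the pattern of Tbr1 at the low end, with wild-type sample 2 lowest and transgenic sample 3 next, but was highest in transgenic sample 2 and not in sample 1.

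The brightest Sox5 probe (ILMN_2631143) stood at 12.19, 12.50 and 10.65 in the transgenic and 11.03, 9.58 and 11.84 in the wild-type samples, a 7.56-fold range. This probe was at or above the 82.3 percentile of the array in every embryo. The second Sox5 probe, with a mean level of 8.86, ranged 5.24-fold and correlated with the first at r = 0.990 over the 6 embryos. The remaining Sox5 probes were dim, with mean levels of 7.34 and 7.17, and in wild-type sample 2 they stood at the 36.6 and the 1.74 percentile. Pairs of Sox5 probes had correlations from 0.813 to 0.990, which describes repeated measures of 1 gene and not separate genes. All 4 Sox5 probes had transgenic sample 2 highest, transgenic sample 1 next, transgenic sample 3 next to lowest and wild-type sample 2 lowest. They disagreed only on wild-type samples 1 and 3.

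Neurod2 (ILMN_2862362) stood at 10.27, 10.29 and 7.71 in the transgenic and 8.69, 7.66 and 9.50 in the wild-type samples, a 6.22-fold range. The 6 embryos had the same order for Neurod2 as for Fezf2 and the brightest Sox5 probe. Its neighbours at the top, transgenic samples 1 and 2, stood at nearly the same level, so that their order is not reliable. Neurod6 (ILMN_2708982) stood at 8.46, 8.89 and 6.90 in the transgenic and 7.03, 6.91 and 7.72 in the wild-type samples. In transgenic sample 3, wild-type sample 1 and wild-type sample 2 it lay below the array median, so that these 3 values have no reliable order. Both genes were bright in the same 2 transgenic embryos and dim in transgenic sample 3.

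Bcl11b (ILMN_2611022) stood at 12.47, 12.15 and 11.43 in the transgenic and 12.18, 11.82 and 12.41 in the wild-type samples. It was the most even of the 7 genes, with a 2.06-fold range, and lay at or above the 94.6 percentile in every array. In wild-type sample 2, where Tbr1 and Fezf2 were dim, Bcl11b deviated by -0.26 from its 6-array mean, and its lowest value was in transgenic sample 3. Lhx2 (ILMN_2722383) stood at 8.42, 8.85 and 8.05 in the transgenic and 8.31, 9.51 and 9.57 in the wild-type samples. Its range was 2.87-fold, and wild-type sample 2, lowest for Tbr1, Fezf2, Sox5 and Neurod2, was the second highest for Lhx2, 0.72 above the 6-array mean.

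**Figure D1:**
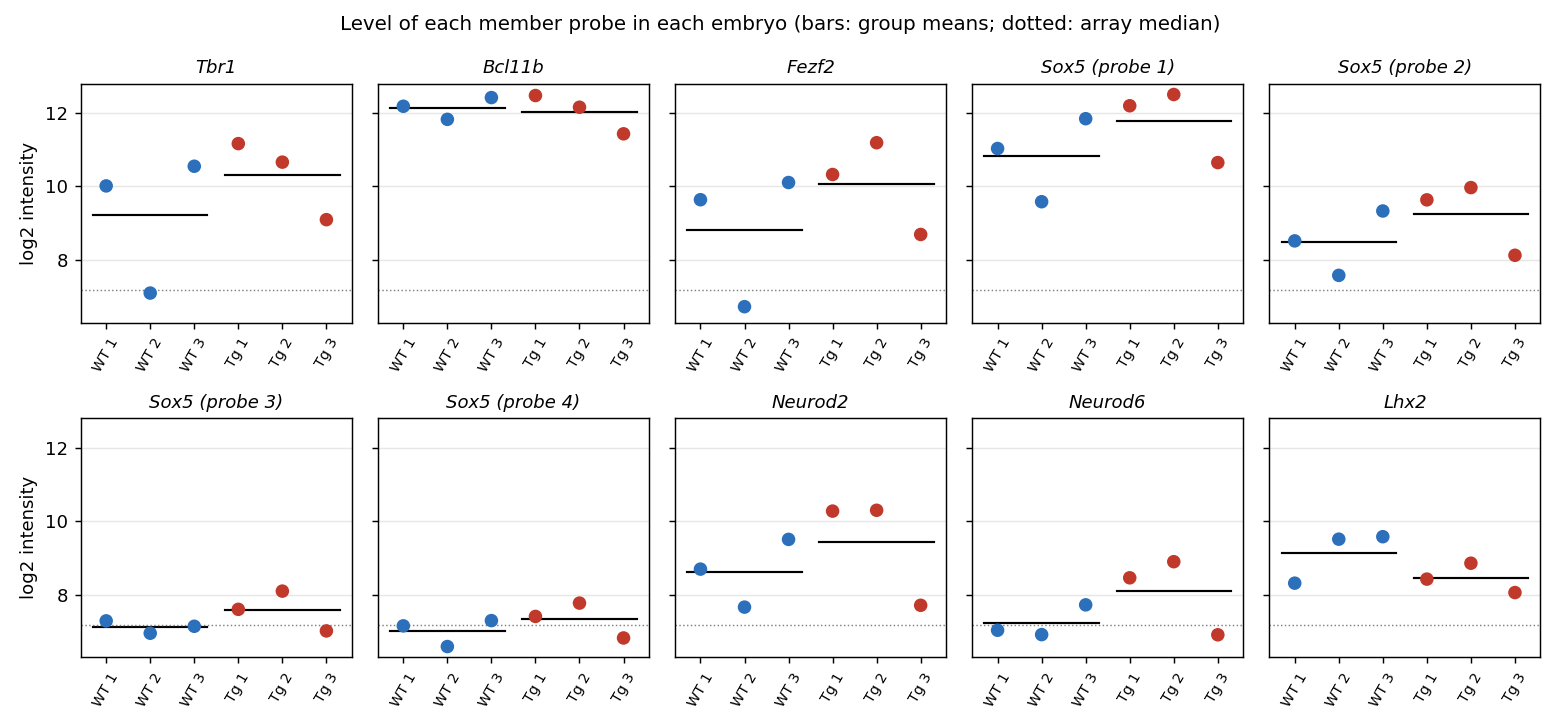
Log2 intensity (vertical axis) of the 10 member probes in each of the 6 embryos (horizontal axis; WT 1 to 3 wild-type in blue, Tg 1 to 3 transgenic in red), with bars at the group means and a dotted line at the array median of 7.18. Tbr1 and Fezf2 lie at 7.09 and 6.72 in WT 2, while Bcl11b stays between 11.43 and 12.47 in all embryos; groups overlap in each panel.

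Tbr1, Fezf2, Sox5, Neurod2 and Neurod6 went up and down together from embryo to embryo, while Bcl11b followed them less closely and Lhx2 did not follow them over all 6. Correlations were computed for the 21 pairs of the 7 genes over the 6 embryos, with 1 probe a gene, as Pearson's r and Spearman's rho with an exact two-sided permutation p adjusted by Benjamini-Hochberg over the 21 pairs. The 10 pairs among the first 5 genes had r from 0.724 to 0.975 and rho from 0.886 to 1. Of these, 6 passed an adjusted p of 0.05 for r and 9 for rho. The group of 5 was not named beforehand and follows these same correlations, so that its range and counts describe it and do not test it. The 5 pairs of Bcl11b with these genes had r from 0.618 to 0.819, and 0 of the 5 passed (exact permutation test, 1 at an unadjusted p under 0.05). Without the 2 farthest samples these 5 values lay between -0.219 and 0.665. The 6 pairs with Lhx2 had r from -0.292 to 0.295 and 0 passed, with 0 at an unadjusted p under 0.05 (exact permutation test), and lay between 0.045 and 0.581 without the 2 farthest samples.

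Fezf2 with Sox5 had r = 0.975 (exact permutation adjusted p = 0.00973) and rho = 1 (adjusted p = 0.0195, n = 6), and r was 0.941 without the 2 samples farthest from the Fezf2 median, transgenic sample 2 and wild-type sample 2. Sox5 with Neurod2 had r = 0.95 (exact permutation adjusted p = 0.00973) and rho = 1, and r was 0.983 without the same 2 samples. For Fezf2 with Neurod2 the values were r = 0.886 (exact permutation adjusted p = 0.00973) and rho = 1, and r was 0.971 without them. In these 3 pairs r thus stayed high without those 2 samples, but transgenic sample 3, next lowest for all 3 genes, was kept. The samples left out depend on the gene named first. The pairs of Tbr1 that follow lost transgenic sample 3 in place of transgenic sample 2, so that the values without 2 samples are not compared between them. Tbr1 with Fezf2 had r = 0.958 (exact permutation adjusted p = 0.0292) and rho = 0.943 (adjusted p = 0.039), but r was 0.506 over the 4 embryos left without wild-type sample 2 and transgenic sample 3, so that the size of this relation rests on those samples. Tbr1 with Sox5 had r = 0.949 (exact permutation adjusted p = 0.0175, rho = 0.943) and r = 0.796 without the 2 farthest samples. Tbr1 with Neurod2 had r = 0.871 (exact permutation adjusted p = 0.0146, rho = 0.943) and r = 0.891 without them.

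The pairs that missed the threshold for r among these 5 genes all include Neurod6, which was dim in 3 embryos. Neurod2 with Neurod6, the closest relatives of the list, had r = 0.940 (exact permutation adjusted p = 0.0509) and rho = 0.943 (adjusted p = 0.039), and r was 0.975 without the 2 farthest samples. Sox5 with Neurod6 had r = 0.889 with the same exact permutation adjusted p of 0.0509 and the same rho. Fezf2 with Neurod6 had r = 0.800 (exact permutation adjusted p = 0.0876, rho = 0.943) and Tbr1 with Neurod6 r = 0.724 (exact permutation adjusted p = 0.149, rho = 0.886). Without the 2 farthest samples, r was 0.964, 0.847 and 0.769 in these 3 pairs.

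The 5 genes still varied together without wild-type sample 2, though not every pair was as close. The 10 pairs then had r from 0.819 to 0.980 over 5 embryos. Tbr1 with Fezf2 fell from 0.958 to 0.836 and Tbr1 with Sox5 from 0.949 to 0.899. Fezf2 with Sox5 fell from 0.975 to 0.955 and Neurod2 with Neurod6 from 0.940 to 0.937, while the other pairs rose. As deviations from the genotype means, r of the 10 pairs ranged from 0.658 to 0.970. As deviations from the means of the 2 animal number ranges it ranged from 0.662 to 0.982. Muscle genes were bright in transgenic sample 1 and wild-type sample 3 and dim in transgenic sample 2. Transgenic sample 2 had the highest Fezf2, Sox5, Neurod2 and Neurod6, followed by transgenic sample 1 and then wild-type sample 3. Tbr1 was highest in transgenic sample 1. The part of muscle tissue in the shared pattern was not tested. Lhx2 depended on wild-type sample 2. Its 6 correlations lay between -0.292 and 0.295 with wild-type sample 2 and between 0.382 and 0.597 without it, and all 6 had a higher r without it. Bcl11b with Tbr1 had r = 0.695 (exact permutation adjusted p = 0.2, rho = 0.771) with all embryos, 0.665 without the 2 farthest samples and 0.921 without wild-type sample 2 alone.

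**Figure D2:**
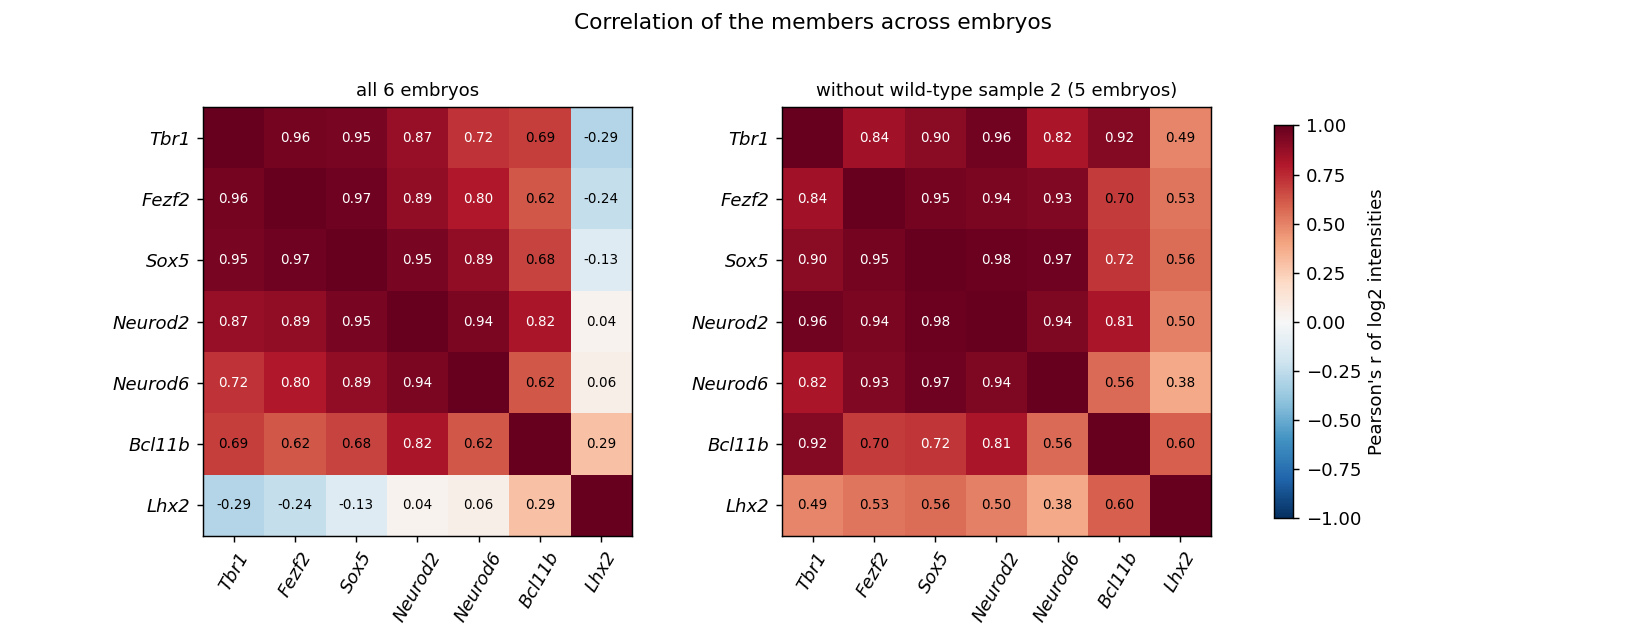
Pearson's r of log2 intensities for each pair of the 7 genes (rows and columns), over all 6 embryos on the left and over 5 embryos without wild-type sample 2 on the right, on a colour scale from -1 to 1. The block of Tbr1, Fezf2, Sox5, Neurod2 and Neurod6 spans 0.724 to 0.975 on the left and 0.819 to 0.980 on the right, while the Lhx2 row spans -0.292 to 0.295 and 0.382 to 0.597.

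**Figure D3:**
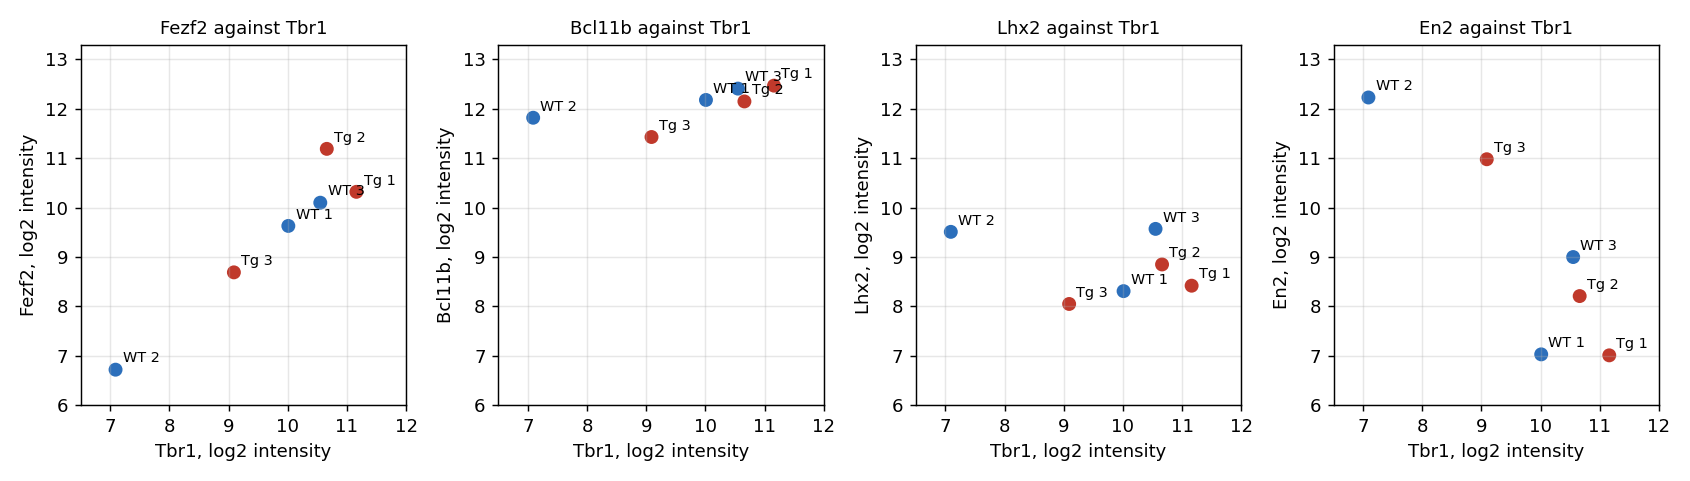
Log2 intensity of Fezf2, Bcl11b, Lhx2 and En2 (vertical axes) against that of Tbr1 (horizontal axes), 1 point per embryo, transgenic (Tg) in red and wild-type (WT) in blue. WT 2 lies at Tbr1 7.09 with Fezf2 at 6.72, Lhx2 at 9.51 and En2 at 12.23.

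Because the 5 genes varied together, the sequence just before their transcription starts is shown. Each line gives the 250 bases upstream of the annotated start in RefSeq (GRCm38.p6), 5′ to 3′ on the strand of the gene, with capitals on matches to any of 5 motifs of the factor families in the list, searched on both strands.
Tbr1, chr2:61804203-61804452 (+): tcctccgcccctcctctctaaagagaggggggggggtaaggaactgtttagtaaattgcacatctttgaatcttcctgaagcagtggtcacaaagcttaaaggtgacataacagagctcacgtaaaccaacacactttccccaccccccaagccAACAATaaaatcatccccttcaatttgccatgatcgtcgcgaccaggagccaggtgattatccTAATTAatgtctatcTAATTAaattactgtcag
Fezf2, chr14:12345866-12346115 (-): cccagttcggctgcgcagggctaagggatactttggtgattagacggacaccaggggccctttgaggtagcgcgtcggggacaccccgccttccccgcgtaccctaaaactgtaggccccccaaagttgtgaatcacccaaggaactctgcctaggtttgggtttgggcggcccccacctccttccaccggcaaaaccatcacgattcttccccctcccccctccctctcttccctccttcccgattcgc
Sox5, chr6:143947107-143947356 (-): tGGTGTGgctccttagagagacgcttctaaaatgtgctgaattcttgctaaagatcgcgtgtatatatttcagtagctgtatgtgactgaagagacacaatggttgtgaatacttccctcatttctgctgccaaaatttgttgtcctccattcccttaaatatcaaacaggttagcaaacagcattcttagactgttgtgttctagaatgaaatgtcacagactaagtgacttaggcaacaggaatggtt
Neurod2, chr11:98329646-98329895 (-): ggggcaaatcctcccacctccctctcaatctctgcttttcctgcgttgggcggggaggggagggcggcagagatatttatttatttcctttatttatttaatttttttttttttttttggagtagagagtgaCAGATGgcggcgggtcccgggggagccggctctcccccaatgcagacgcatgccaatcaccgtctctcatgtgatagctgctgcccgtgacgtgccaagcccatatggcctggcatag
Neurod6, chr6:55681264-55681513 (-): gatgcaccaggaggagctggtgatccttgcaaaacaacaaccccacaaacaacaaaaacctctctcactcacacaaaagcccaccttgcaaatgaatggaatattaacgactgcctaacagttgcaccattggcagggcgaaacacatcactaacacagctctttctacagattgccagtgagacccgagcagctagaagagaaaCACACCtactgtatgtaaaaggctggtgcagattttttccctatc
The motifs were the neuronal E-box CAGATG bound by basic helix-loop-helix factors, the palindromic E-box CAGCTG, the T-box motif GGTGTG, the SOX site AACAAT and the homeobox site TAATTA. No matches of different motifs overlapped. The Tbr1 window held 1 SOX and 2 homeobox matches, the Neurod2 window 1 neuronal E-box, and the Sox5 and Neurod6 windows 1 T-box match each, while the Fezf2 window held none. Of all 32851 windows of this length, 14.4% held the neuronal E-box, 13% the palindromic one, 16.3% the T-box motif, 9.42% the SOX site and 4.84% the homeobox site. No motif was common to the 5 windows. With each motif in 4.84% to 16.3% of all windows, 1 motif in all 5 was unlikely in any case. Shared regulation was not tested. The windows differ in composition, with a GC content of 61.2% for Fezf2, 52.8% for Neurod2, 46.0% for Neurod6, 45.2% for Tbr1 and 39.6% for Sox5, against a median of 52.4% over all windows.

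The only contrast of the design is transgenic against wild-type, that is, with and without the artificial chromosome that spans Cyfip1. The level of Cyfip1 itself was not measured, since no probe bore its name. 0 of the 9 member probes tested passed (limma, adjusted p under 0.05), and 0 had an unadjusted p under 0.05. Over all 12848 probes tested, 0% passed and 6.98% had an unadjusted p under 0.05, 446 of them higher and 451 lower. With arrays brought to 1 median only, 776 were higher and 106 lower, and the median of all tested probes moved from -0.03 to 0.03. The groups did not overlap for 14.2% of all tested probes and for 0 of the 10 member probes. The tenth probe, the dimmest of Sox5, had a mean level of 7.17, just below the median of 7.18 that a probe had to exceed, and the Sox5 probe just inside had 7.34.

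The 5 genes that varied together were all higher on average in transgenic embryos, none of them past the test, and the groups overlapped for each. Fezf2 was at 10.07 ± 1.27 in the transgenic and 8.82 ± 1.83 in the wild-type samples (SD of log2 intensity, n = 3 per group), the difference being 1.24 (SE 1.0, limma adjusted p = 0.726) with a 95% interval from -1.16 to 3.64. Tbr1 was at 10.30 ± 1.08 and 9.22 ± 1.86 (SD, n = 3 per group), the difference being 1.09 (SE 0.97, limma adjusted p = 0.745) with an interval from -1.23 to 3.40. The brightest Sox5 probe differed by 0.96 (SE 0.69, interval -0.68 to 2.60), and the other Sox5 probes by 0.77, 0.44 and 0.32. Neurod6 differed by 0.87 (SE 0.52, interval -0.37 to 2.10) and Neurod2 by 0.81 (SE 0.79, interval -1.08 to 2.70). These intervals hold both 0 and differences of more than 2 on the log2 scale, so that neither was told apart from the other at this number of embryos.

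Bcl11b was at 12.02 ± 0.53 in the transgenic and 12.14 ± 0.30 in the wild-type samples (SD of log2 intensity, n = 3 per group), the difference being -0.12 with an interval from -0.81 to 0.57 (limma adjusted p = 0.900). This was the narrowest interval of the 7 genes. Lhx2 was at 8.44 ± 0.40 and 9.13 ± 0.71 (SD, n = 3 each), lower in transgenic samples by a difference of -0.69 (SE 0.38, interval -1.59 to 0.21, limma adjusted p = 0.675). Wild-type sample 1, at 8.31, lay below transgenic samples 1 and 2 for Lhx2.

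The size of these differences depended on single embryos. Without wild-type sample 2 the Tbr1 difference was 0.03 (SE 0.62) and the Fezf2 difference 0.20 (SE 0.71), and without transgenic sample 3 they were 1.69 and 1.93. Wild-type sample 2 was singled out for its low Tbr1 and Fezf2, so that leaving it out had to lower both differences. Wild-type sample 2 and transgenic sample 3 were each lowest of their genotype for Tbr1, Fezf2, Sox5, Neurod2 and Neurod6. The direction of these changes was thus fixed, and only their size describes how far the differences rest on these embryos. Sox5 (brightest probe) gave 0.35 and 1.53 in the same 2 settings, Neurod2 0.33 and 1.67, and Neurod6 0.71 and 1.46. With both transgenic sample 1 and wild-type sample 2 left out, Tbr1 turned to -0.40 (SE 0.53) and Neurod2 to -0.10 (SE 0.85), while Fezf2 was at 0.07, Sox5 at 0.14 and Neurod6 at 0.53. Without transgenic sample 3, 4 of 10 member probes had an unadjusted p under 0.05, those of Neurod2, Neurod6 and 2 of Sox5, and each had a limma adjusted p of 0.663. In that setting 6.67% of all tested probes had an unadjusted p under 0.05. Leaving out wild-type sample 1 moved Lhx2 to -1.10 (SE 0.25, limma adjusted p = 0.525). It was the only member probe of 9 with an unadjusted p under 0.05 in that setting, where 7.28% of all tested probes had one. Without wild-type sample 2, Lhx2 was at -0.50 (SE 0.425) and Bcl11b at -0.28 (SE 0.32). Lhx2 was at -0.47 without wild-type sample 3, and at -0.68, -0.89 and -0.49 without transgenic samples 1, 2 and 3.

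Within the pair of animals numbered under 100, transgenic sample 1 minus wild-type sample 3 was 0.62 for Tbr1, 0.22 for Fezf2, 0.35 for the brightest Sox5 probe, 0.77 for Neurod2 and 0.74 for Neurod6. Among the 4 animals numbered over 200 the same differences of means were 1.32, 1.76, 1.27, 0.83 and 0.93. Lhx2 differed by -1.15 and -0.46, and Bcl11b by 0.06 and -0.21. The signs of the 5 genes and of Lhx2 were the same in both ranges, with wild-type sample 2 in the second range. The first range is a single pair, and the 5 genes vary together. Without wild-type sample 2, which was singled out for its low Tbr1, the difference of means over 200 changed sign for Tbr1 and Lhx2. Wild-type sample 1 stood at 10.01 for Tbr1, against 10.66 and 9.09 in transgenic samples 2 and 3. For Lhx2 these values were 8.31, 8.85 and 8.05.

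**Figure D4:**
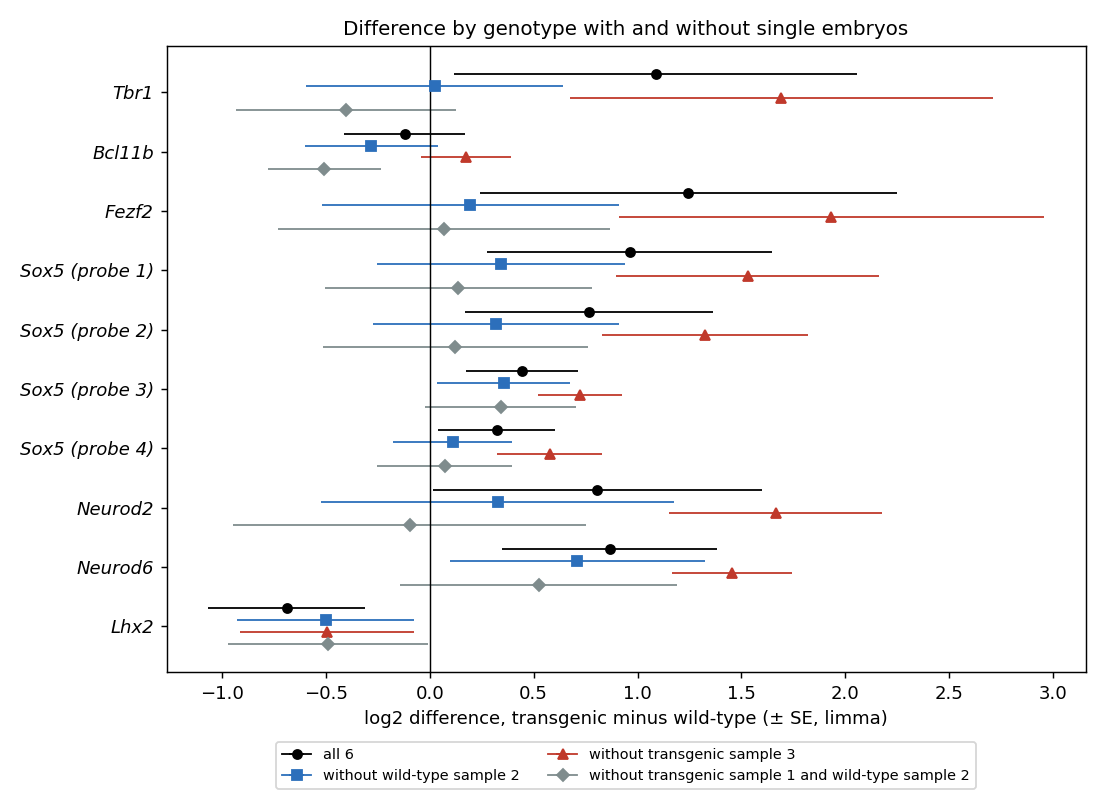
Log2 difference, transgenic minus wild-type, with its limma standard error (horizontal axis) for the 10 member probes (rows; Sox5 probe 4 from the fit with no intensity filter), over all 6 embryos and with embryos left out. For Tbr1 the value is 1.09 with all 6, 0.03 without wild-type sample 2 and -0.40 without that sample and transgenic sample 1. Wild-type sample 2 was singled out for its low Tbr1 and Fezf2.

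Other genes of projection neuron identity were divided in direction. Of the 12 paralogues listed for the members, 11 had a probe and 7 were tested, 3 above 0 and 4 below, with a median difference of -0.06 and 0 past the threshold. The median over all tested probes was -0.03, with 5622 above 0 and 7226 below. Eomes, the T-box relative of Tbr1 that marks intermediate progenitors, stood at 8.81, 8.83 and 7.36 in the transgenic and 8.05, 6.80 and 8.63 in the wild-type samples, the same lowest and next lowest embryos as Tbr1. Bcl11a, the relative of Bcl11b, was even across embryos, at 11.56 to 12.25. Lhx9, the relative of Lhx2, stood at 10.36 in wild-type sample 2 and at 6.71 to 8.69 elsewhere, the opposite of Tbr1 at that embryo. Neurod4 was also highest there, at 8.32 against 6.94 to 7.75.

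Among 36 further regulators of projection neurons, 31 had a probe and 30 were tested, with 17 above 0, 13 below, a median of 0.02 and 0 past the threshold. Against 6.98% and 14.2% of all tested probes, 2 of the 30 had an unadjusted p under 0.05 and 3 had groups that did not overlap. Myt1l, a zinc finger factor that keeps neuronal identity, stood at 9.62, 10.20 and 9.72 in the transgenic and 10.44, 10.82 and 10.65 in the wild-type samples, a difference of -0.79 (SE 0.19, limma adjusted p = 0.675). Lmo3, a LIM-only cofactor, differed by -0.78 (SE 0.27) and Cux1, a homeobox gene of upper layers, by -0.27 (SE 0.14), both without overlap and neither passing. Nfix, a nuclear factor of cortical progenitors and neurons, followed the 5 members, at 12.52, 13.31 and 10.41 in the transgenic and 11.65, 10.09 and 12.26 in the wild-type samples. Zfpm2, a cofactor of deep-layer neurons that is also called Fog2, stood highest in wild-type sample 2, at 11.22 against 8.67 to 10.33. Of these 30 genes, 10 had their highest value in wild-type sample 2 and 5 their lowest, against 2757 and 1888 of the 12848 tested probes.

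Of 26 subtype markers that are not transcription factors, 22 had a probe and 16 were tested, 8 above 0 and 8 below, with a median of 0.07 and 0 past the threshold. Sla, the Src-like adaptor of receptor signalling, stood at 11.14, 11.99 and 8.47 in the transgenic and 9.26, 7.26 and 9.46 in the wild-type samples, and its difference of 1.88 (SE 0.99) did not pass. Against 6.98% and 14.2% of all tested probes, 1 of the 16 had an unadjusted p under 0.05 and 2 had groups that did not overlap. These were S100a10, a calcium-binding protein, with a difference of 0.98 (SE 0.39), and Igfbp4, which binds insulin-like growth factors, with 1.11 (SE 0.47, both limma adjusted p = 0.675). 8 of the 16 were lowest in wild-type sample 2, against 1888 of 12848 among all tested probes. Of 18 genes of pallial progenitors all had a probe and 13 were tested, 10 above 0 and 3 below, with a median of 0.15 and 0 past the threshold. The median was -0.05 without wild-type sample 2 and -0.02 without transgenic sample 1 as well. Against the same shares of all tested probes, 2 of the 13 had an unadjusted p under 0.05, and for the same 2 the groups did not overlap. These were Hes1, a Notch target that maintains progenitors, with a difference of 0.65 (SE 0.22), and Fabp7, a fatty acid binding protein of radial glia, with -0.34 (SE 0.11, both limma adjusted p = 0.675). Dmrta2, which patterns the pallium, stood at 7.44 in wild-type sample 2 and 9.17 to 10.43 elsewhere. Tfap2c, a factor of cortical progenitors, stood at 7.25 in wild-type sample 2, 8.40 in transgenic sample 3 and 10.62 to 10.90 in the other 4. Of 14 general neuronal genes, 12 were tested, 2 above 0 and 10 below, with a median of -0.33 and 0 past the threshold. The median was -0.12 without transgenic sample 1. Their mean deviation from the 6-array mean was 0.12 in wild-type sample 2, where the mean of the 7 members was -1.25, and -0.51 in transgenic sample 1, where that of the members was 0.75.

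Markers of other tissues also differed between the embryos. With the mean of the muscle and skin genes as a covariate, the difference was 0.76 for Tbr1 (SE 0.90), 1.08 for Fezf2, 0.77 for the brightest Sox5 probe, 0.53 for Neurod2, 0.74 for Neurod6, -0.26 for Bcl11b and -0.73 for Lhx2, and 0 passed. The part of the other tissues in the results was not tested. Of 25 genes of midbrain, hindbrain, thalamus and hypothalamus, 23 had a probe, 14 were tested, 5 above 0 and 9 below, with a median of -0.36 and 0 past the threshold. The median turned to 0.63 without wild-type sample 2 and to 1.15 without transgenic sample 1 as well. Their mean level ranged from 8.08 to 9.16 in the transgenic and 7.61 to 9.95 in the wild-type samples. 10 of the 14 were highest in wild-type sample 2, against 2757 of all 12848 tested probes, and the mean deviation there was 1.29, with 0.50 in transgenic sample 3 as the next highest. These are the 2 embryos in which the 5 members were lowest. Tcf7l2, a gene of thalamic neurons among others, stood at 12.84 in wild-type sample 2 and 12.10 in wild-type sample 3, which was high for Lhx2 too, against 9.48 to 11.05 elsewhere. Of 22 genes of GABAergic neurons and the ganglionic eminences, 19 had a probe and 13 were tested, 5 above 0 and 8 below, with 0 past the threshold, a median of -0.12 and mean levels of 9.40 to 10.04 in the transgenic and 8.57 to 10.27 in the wild-type samples. The median was -0.46 without wild-type sample 2. 7 of the 13 were lowest in wild-type sample 2, while Gad1, which makes GABA, stood at 12 there.

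Muscle and skin genes had mean levels of 7.09 to 10.05 in the transgenic and 7.16 to 8.42 in the wild-type samples, 14 of 15 tested genes above 0, with a median of 0.53. This median turned to -0.79 without transgenic sample 1 and to -0.60 without wild-type sample 2 as well, and was 0.24 without wild-type sample 2 alone. Meningeal and fibroblast genes had 14 of 14 above 0, a median of 1.14 and mean levels of 9.51 to 10.5 and 8.16 to 9.47. Leaving out transgenic sample 1 gave a median of 0.73, and leaving out wild-type sample 1 gave 1.92. Among them Col3a1, a fibrillar collagen, differed by 2.01 (SE 0.64). Choroid plexus genes had 8 of 9 above 0, a median of 1.2 and mean levels of 8.83 to 10.44 and 7.48 to 8.92. Msx1, a homeobox gene of the dorsal midline, differed by 1.2 (SE 0.20). The list was highest in transgenic sample 3, in which the members were low. Genes of vessels, blood and microglia had 16 of 19 above 0 with a median of 0.39 and mean levels of 8.99 to 9.29 and 8.60 to 8.97. Lyz2, lysozyme of microglia and macrophages, differed by 1.02 (SE 0.21). Genes of Cajal-Retzius cells, the pioneer neurons of the cortical surface, and of the cortical hem had 2 of 7 above 0 with a median of -0.26, and their mean deviation was highest in wild-type sample 2 at 0.75 and in transgenic sample 3 at 0.58. Of these 7 genes, 5 were highest in wild-type sample 2, while Lmx1a was lowest there at 6.88. Which cells these genes came from was not tested. The median of this list turned to 0.285 without transgenic sample 1 and to 0.42 without wild-type sample 2 as well. Leaving out wild-type sample 1 gave -0.62, and leaving out wild-type sample 2 alone gave -0.06. None of the genes in these 5 lists passed (limma, adjusted p under 0.05). In this order 0 of 15, 6 of 14, 5 of 9, 7 of 19 and 2 of 7 had an unadjusted p under 0.05. Over all 12848 probes tested, 897 (6.98%) had one, and 5622 were above 0 and 7226 below. No list was tested as a set.

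**Figure D5:**
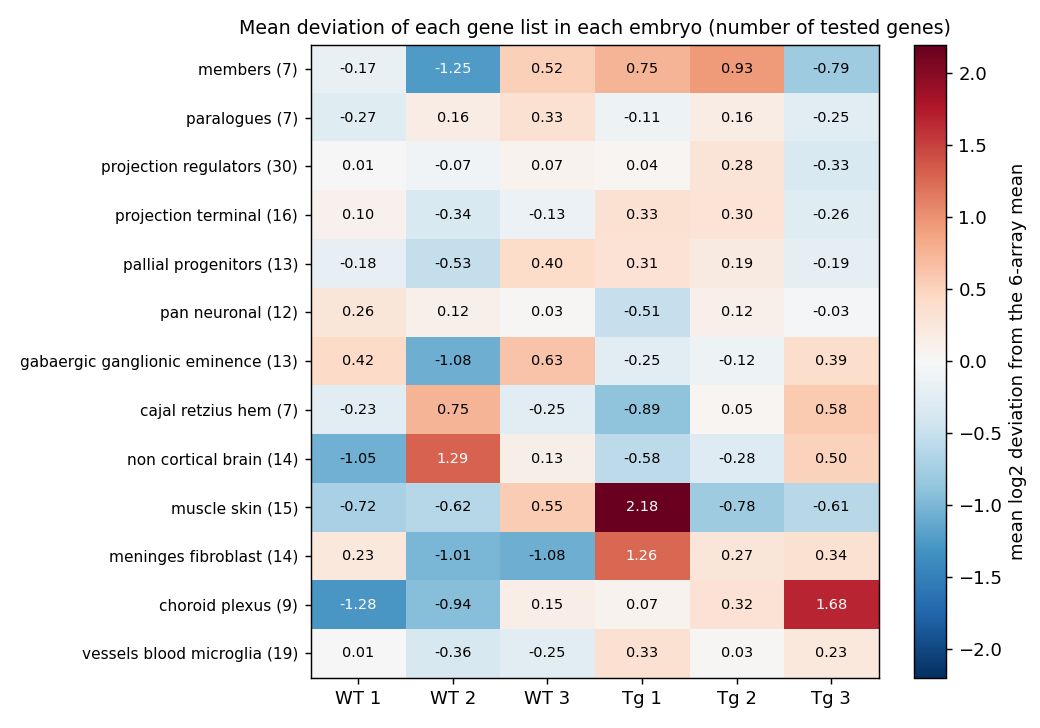
Mean deviation of each gene list (rows, with the number of tested genes) from its 6-array mean in each embryo (columns, WT wild-type and Tg transgenic), on the log2 scale. The 7 members reach -1.25 in WT 2 and -0.79 in Tg 3, the embryos in which the list of non-cortical brain genes has its highest values, 1.29 and 0.50.

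The genes whose pattern was most like the mean of the 7 members were found by Pearson's r over the 6 embryos, as a description over points that share arrays. The 5 highest were Eomes (r = 0.993), Ppid (0.991), Tcf4 (0.988), Foxo6 (0.983) and Nfix (0.983). Of the 12848 probes, 36 had r above 0.95, and 15 passed the same size of r with a negative sign. Whether these counts exceed those of chance over 6 points was not tested, so the genes named are not shown to be a set that varies together. Tcf4, a partner of proneural basic helix-loop-helix factors, stood at 13.57, 13.89 and 12.58 in the transgenic and 13.20, 12.16 and 13.56 in the wild-type samples. Ppid, a cyclophilin, spanned only 0.35 on the log2 scale, so that a high r did not mean a large difference. Foxo6, a forkhead gene of the cortex and hippocampus, ranged from 7.31 to 8.48. The 5 genes most opposite were Pyurf (r = -0.990), Ndufv3 (-0.986), Ilvbl (-0.985), Gatb (-0.974) and Zfp787 (-0.973), and none of them spanned more than 0.58.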

How the data were processed

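Frontal cortex RNA of 6 embryos was hybridised to 6 Illumina arrays, 3 per genotype. The authors deposited a table of linear scanner intensity per probe and a table of log2 values. Per the submitters' processing notes BeadStudio was used, with version and settings not given in the sources used here. The deposited log2 values matched, to within 5e-09, log2 intensities that were quantile-normalized without background correction, and served as the main values. Detection p-values were not used here.

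Probes were named by the platform annotation through gene identifiers in RefSeq of GRCm38.p6, 23962 of 23978 named probes being found there. The 12848 of 25697 probes whose mean over the 6 arrays exceeded the median were tested with limma 3.58.1 in R 4.3.3 (lmFit and eBayes, two-sided, no covariate), adjusted by Benjamini-Hochberg. The fit was run on simulated arrays with known changes, as a check of the code and not of these results. A gene of several probes was represented by the brightest. Alternatives changed the background correction, normalization, filter, array weights, covariates and samples. The members and lists were chosen with earlier results of these data known. Genes named are the members, some of the 4 genes of smallest p and the 2 of widest range in each list, and the 5 genes most like and most opposite to the member mean. Embryos were numbered only to name them. The labels call the samples littermates but give no litter. The limma p-values set a difference against the spread within the groups of these 6 samples, and those of the correlations come from reordering the 6 samples.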

Additional observations from a re-analysis of the deposited data

How the results depend on the processing

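No paired analysis was possible because the labels give no replicate numbers shared between genotypes. The count of 0 probes past the threshold, over all probes and among the members, held in each of the 15 alternatives. At an unadjusted p under 0.05, 446 probes were higher and 451 lower, against 895 and 1101 when the animal number range was a block, 749 and 880 with no filter, 205 and 217 with the filter at the 75th percentile, 195 and 228 without wild-type sample 2, 294 and 253 without transgenic sample 1, 184 and 165 without both, and 776 and 106 with median scaling. Signs of the member differences turned in 4 cases. With both transgenic sample 1 and wild-type sample 2 left out, Tbr1 was at -0.40 and Neurod2 at -0.10. Bcl11b lay between -0.35 and 0.17 with 1 embryo left out, turning to 0.02 without wild-type sample 3 and to 0.17 without transgenic sample 3. The cause was not tested. The median r over the 21 pairs was 0.724, between 0.650 and 0.819 with 1 embryo left out, 0.805 with those 2 embryos left out, and 0.849 as deviations from the genotype means. Of the 12 gene lists, 5 had a median below 0, and 3 had one with the filter at the 75th percentile, where fewer genes are tested. Dim probes near the array median, such as Neurod6 and 2 of Sox5, limit what can be read from their order.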
